A study of Rattus norvegicus with 12 samples.

Results

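The interferon response genes described here are the genes whose symbol carries one of the name stems of interferon-induced genes, of interferon regulatory factors or of their partners: Ifi followed by a digit, Ifit, Ifih1, Irf followed by a digit, Isg, Oas, Mx, Gbp, Stat2, Rsad2, Usp18, Xaf1, Ddx58 and Dhx58. The rule reads names and no measured value, and it found 59 genes under 56 symbols among the 30560 genes listed. Gbp1, Gbp6 and Oas1k each stand for 2 Ensembl genes and are told apart by their identifiers where it matters. Ifit1 is not analysed here. In all, 55 of the 59 genes had at least 10 reads over the 12 libraries and were tested, as were 18182 genes of the whole table; Isg15, Oas1d, Oas1f and the Gbp1 gene ENSRNOG00000023943 fell below that limit. The 55 comprised 10 transcription factors, 3 sensors of viral RNA, 26 antiviral effectors, 6 guanylate-binding proteins, 4 interferon-induced transmembrane proteins and 6 genes that the spelling alone brought in, such as Irf2bp2 and Ifitm10, which are not known as interferon response genes.

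The study took male Wistar rats that were 7 weeks old at surgery and treated them for 8 weeks. In the Sham group the chest was opened without infarction and the vehicle, carboxymethylcellulose, was given. In the MI group the left anterior descending coronary artery was tied off permanently, which leaves a chronic myocardial infarction, and the same vehicle was given. The MI + UA group had the same operation and received urolithin A (UA), a metabolite that gut bacteria make from ellagitannins and that is known for promoting mitophagy. Dose and starting day are described differently in the sources used here and are not given. RNA came from formalin-fixed, paraffin-embedded slices of the middle left ventricle, and each library came from 1 rat. There were 4 rats per group: rats 12, 17, 32 and 38 (Sham), 36, 57, 61 and 89 (MI), and 29, 58, 64 and 66 (MI + UA). Rat 66 carries the MI + UA label, but another record of the same study lists that animal with the vehicle-treated infarcts. It was kept under its label, and results that change without it are given as such.

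Libraries held 6228706 to 19031695 reads on genes, of which 3618 to 11176 fell on the interferon response genes. Levels are in CPM, the reads on a gene divided by the library's reads on all genes after scaling and set to a common library size. They are not corrected for gene length, so they compare rats and not genes. The summed level of 9 cardiomyocyte markers was 48073 to 54705 CPM in Sham, 34080 to 40259 in MI and 35569 to 46997 in MI + UA, and none of the 9 was at 0, so the marker check did not go against the tissue on the label. Fewer cells of a type and less RNA per cell cannot be told apart in such bulk samples.

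Interferons are secreted alarm proteins. Type I interferons act on the receptor pair Ifnar1 and Ifnar2 and interferon gamma on Ifngr1 and Ifngr2. The receptors activate Janus kinases, which phosphorylate STAT proteins. A complex that holds Stat2 and Irf9 then binds the interferon-stimulated response element, whereas interferon gamma acts mainly through the gamma-activated site, and both switch on genes that block viral replication. After infarction, DNA and RNA of dying heart cells can start the same programme through cytosolic sensors and Irf3, and macrophages are known as one of its main sites in the heart.

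The promoters of some members that the results turn on are shown first. RefSeq promoters of the assembly GRCr8 were matched by symbol for 44 of the 56 symbols. Each printed sequence covers the 250 bases before a transcription start, 5′ to 3′ on the gene's strand. Capitals mark GAAANNGAA, the centre of the response element, and TTCNNNGAA, the core of the gamma-activated site, each searched on both strands. Of 2 RefSeq promoters under Gbp1, the one with more matches is shown, and which of them belongs to the Ensembl gene with reads is not known here. Ifitm2, Ifitm3 and Irf5 were higher after infarction, Gbp1 was lower, Ifi47 was lower in MI + UA than in Sham, and Ifit3 had the smallest unadjusted p between MI + UA and MI. Ifitm1 was not matched. The called members Irf3 and Ifitm10, with neither motif, and Irf8, with 2 matches to TTCNNNGAA, are not printed.
Ifitm2, chr1:205482349-205482598, - strand: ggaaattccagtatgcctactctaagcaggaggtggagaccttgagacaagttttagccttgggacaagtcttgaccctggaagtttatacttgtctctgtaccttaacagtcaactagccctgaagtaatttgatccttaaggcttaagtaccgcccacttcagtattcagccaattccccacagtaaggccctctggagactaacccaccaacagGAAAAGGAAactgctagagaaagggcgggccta
Ifitm3, chr1:205541759-205542008, - strand: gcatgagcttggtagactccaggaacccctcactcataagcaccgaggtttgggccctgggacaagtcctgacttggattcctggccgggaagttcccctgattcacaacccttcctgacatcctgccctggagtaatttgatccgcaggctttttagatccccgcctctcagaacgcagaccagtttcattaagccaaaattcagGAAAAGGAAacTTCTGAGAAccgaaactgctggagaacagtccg
Gbp1, chr2:234072187-234072436, + strand: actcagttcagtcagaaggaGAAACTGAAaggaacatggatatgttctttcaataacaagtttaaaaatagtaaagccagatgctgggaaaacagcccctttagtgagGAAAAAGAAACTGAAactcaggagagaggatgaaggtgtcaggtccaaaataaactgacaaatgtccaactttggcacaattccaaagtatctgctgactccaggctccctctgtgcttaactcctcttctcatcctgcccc
Ifit3, chr1:241527076-241527325, + strand: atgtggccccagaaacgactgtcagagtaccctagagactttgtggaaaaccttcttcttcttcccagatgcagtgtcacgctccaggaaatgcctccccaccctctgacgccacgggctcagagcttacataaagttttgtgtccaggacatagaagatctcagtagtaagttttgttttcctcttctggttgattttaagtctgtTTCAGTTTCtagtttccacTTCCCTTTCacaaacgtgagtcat
Ifi47, chr10:33798494-33798743, + strand: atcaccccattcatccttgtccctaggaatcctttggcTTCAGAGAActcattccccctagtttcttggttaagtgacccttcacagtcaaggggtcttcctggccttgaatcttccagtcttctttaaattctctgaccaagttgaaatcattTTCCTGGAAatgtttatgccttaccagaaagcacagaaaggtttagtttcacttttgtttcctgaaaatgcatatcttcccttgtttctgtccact
Irf5, chr4:59093205-59093454, + strand: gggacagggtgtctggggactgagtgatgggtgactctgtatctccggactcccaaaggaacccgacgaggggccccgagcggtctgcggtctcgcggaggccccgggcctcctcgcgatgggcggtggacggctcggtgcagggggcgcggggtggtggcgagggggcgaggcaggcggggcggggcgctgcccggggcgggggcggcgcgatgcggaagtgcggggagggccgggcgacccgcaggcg
Gbp1 held 3 matches to GAAANNGAA, starting 230, 142 and 136 bases before the transcription start, the last 2 of which overlap. Ifit3 held 2, starting 43 and 24 bases before it. Ifitm2 and Ifitm3 held 1 each, starting at 33 and 44 bases, and Ifitm3 also a match to TTCNNNGAA. The promoter of Ifi47 held 2 matches to TTCNNNGAA and that of Irf5 held neither motif. The motifs were also counted by symbol in any of its promoters of 300 bases, which reach 50 bases past the start. Of all 27457 symbols, 10.3% held GAAANNGAA and 9.39% held TTCNNNGAA (9.71% and 8.87% of the 33469 promoters). Of the 44 member symbols, 22 held GAAANNGAA (50%) and 9 held TTCNNNGAA (20.5%). GAAANNGAA was found for 5 of 5 Gbp symbols, 12 of 21 effectors, 2 of 3 Ifitm genes and Ifih1, but for 1 of 8 transcription factors, Irf7. TTCNNNGAA was found for 0 of 5 Gbp symbols, 4 of 21 effectors, 1 of 3 Ifitm genes and 3 of 8 transcription factors. A match describes the letters and not a bound site.

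The first comparison, MI against Sham, asks which interferon response genes differ 8 weeks into chronic infarction. The infarcted ventricles held more RNA of the transmembrane proteins Ifitm1, Ifitm2 and Ifitm3 and of the factors Irf3 and Irf5, by 1.26-fold to 1.77-fold, and less of the guanylate-binding protein Gbp1, at 0.455 of the Sham level. With Ifitm10, which the spelling brought in, 6 of 55 tested members were called higher (10.9%, against 5.82% of all tested genes) and 1 was called lower (1.82%, against 5.53%), at an adjusted p under 0.05 in edgeR's quasi-likelihood test. At an unadjusted p under 0.05, 9 of the 55 passed, 8 higher and 1 lower (16.36%, against 23.9% of all tested genes). Without MI rat 36, 16 of 54 passed at that threshold. In either direction, 7 of 55 members and 2064 of 18182 genes were called. Without Sham rat 12 these were 3 of 55 and 1751 of 18053, and without Sham rat 38 they were 2 of 55 and 1498 of 18076. None of the 26 antiviral effectors and none of the 3 RNA sensors was called, and 0 of them passed at an unadjusted p under 0.05. The median log2 fold change over the tested members was 0.05, and over all tested genes it was 0.03; without MI rat 36 the members' median was -0.08. The levels of the 4 rats in each group were fully separated for 6 members that were higher in MI (8.12% of all tested genes) and for 0 that were lower (7.56%). The share of table reads that lay on genes also separated the groups, at 46.85% to 48.35% in Sham and 43.27% to 44.81% in MI, while in MI + UA it was 46.68% to 47.17% in rats 29, 64 and 66 and 42.9% in rat 58. Its part in the differences between MI and Sham was not tested.

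Ifitm proteins sit in cell membranes and hinder the fusion of enveloped viruses. Ifitm1 stood at 13.4, 11.4, 10.4 and 13.9 CPM in Sham rats 12, 17, 32 and 38, at 20.3, 17.1, 21.3 and 23.7 CPM in MI rats 36, 57, 61 and 89, and at 19.9, 23.4, 23.7 and 16.3 CPM in MI + UA rats 29, 58, 64 and 66. Every infarcted rat lay above every Sham rat, treated or not. The log2 fold change was 0.74 ± 0.14 (SE) for MI against Sham (edgeR adjusted p = 0.00147) and 0.73 ± 0.14 for MI + UA against Sham (adjusted p = 0.00209). Ifitm2 stood at 50.3, 52.0, 49.3 and 48.3 CPM in Sham, at 55.6, 60.8, 63.4 and 71.6 CPM in MI and at 68.3, 54.1, 71.2 and 60.4 CPM in MI + UA. Again no infarcted rat overlapped Sham, though the rise was smaller, 0.33 ± 0.10 in MI (adjusted p = 0.0317) and 0.35 ± 0.10 in MI + UA (adjusted p = 0.0281). Ifitm3 stood at 31.1, 37.5, 33.8 and 36.5 CPM in Sham, at 39.8, 40.3, 58.3 and 50.2 CPM in MI and at 44.6, 52.3, 44.7 and 34.1 CPM in MI + UA. It rose in MI by 0.44 ± 0.13 on the log2 scale (adjusted p = 0.0335), whereas in MI + UA rat 66 lay within Sham and the difference of 0.33 ± 0.13 was not called (adjusted p = 0.137). Without rat 66, Ifitm3 was called in MI + UA as well. Ifitm6 had 24 reads in all.

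The calls of Ifitm1 and Gbp1 in MI against Sham held when any 1 of the 12 rats was left out, with adjusted p of at most 0.00847 and 0.00719. Those of Ifitm2, Ifitm3, Irf3, Irf5 and Ifitm10 held in 6, 7, 5, 9 and 10 of the 12 such fits. Of the 7 calls, 4, 4, 2, 4 and 2 were left without MI rats 61 and 89 and Sham rats 12, 32 and 38, in that order, and Irf8 was called without Sham rat 12. Without MI rat 36, 6 of the 7 were left, without Irf3, and Irf2bp2 and Rsad2 were called. Ifitm3 was also lost when rat 66 was counted in MI. The 3 Ifitm genes are close copies of each other, and reads that match several of them may have been split or dropped by the authors' counting. Summed over Ifitm1, Ifitm2, Ifitm3 and Ifitm6, the level was 93.8 to 101 CPM in Sham, 116 to 146 in MI and 111 to 140 in MI + UA. The sum does not recover dropped reads.

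**Figure D1:**
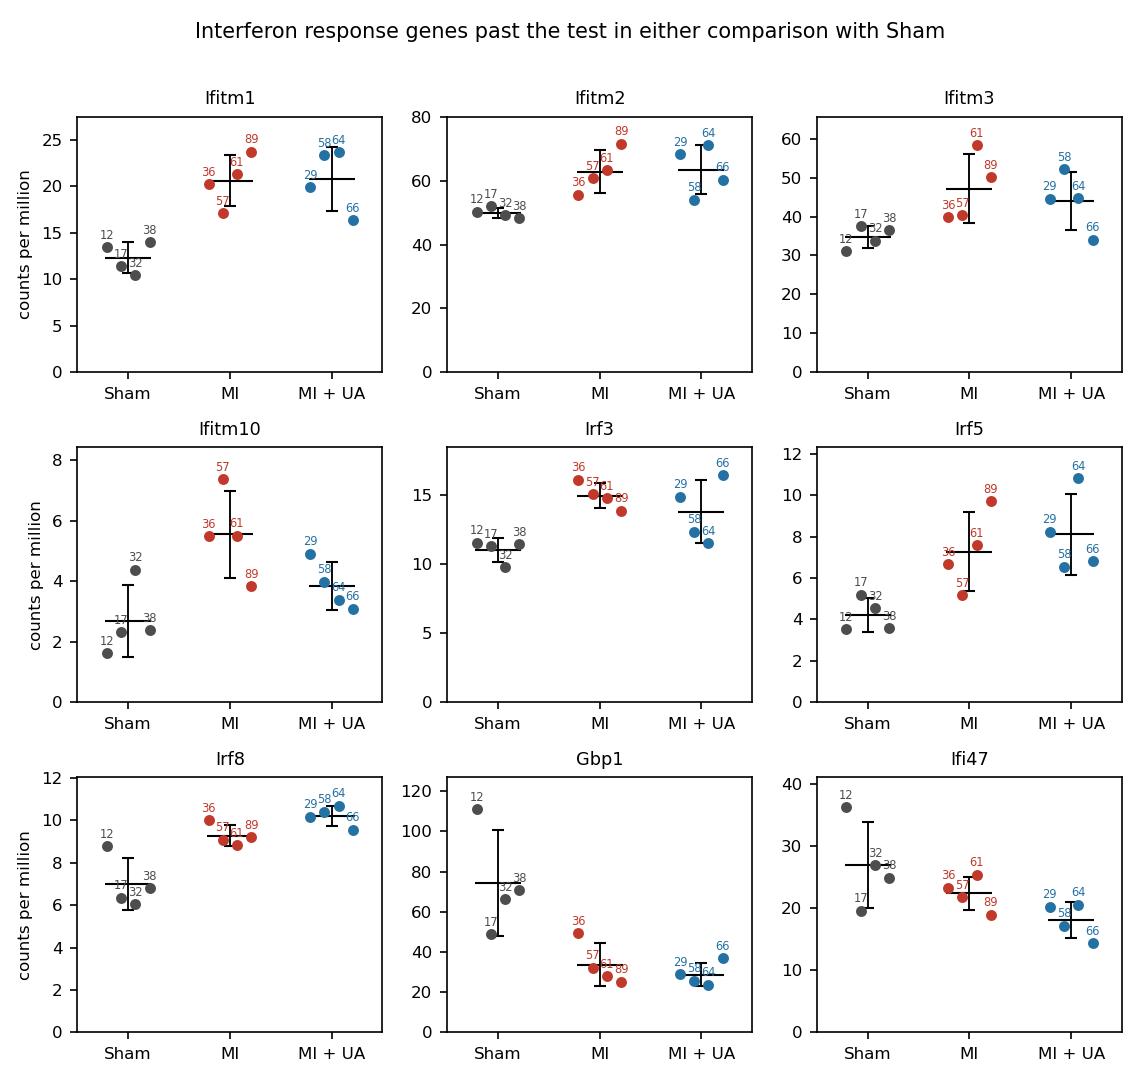
Level in CPM (vertical axis, from 0) of the 9 members that passed the test in MI or MI + UA against Sham, with 1 point per rat marked by its number; black bars are the mean and SD of 4 rats. Ifitm1 and Ifitm2 of all 8 infarcted rats lie above the Sham rats, whereas Gbp1 runs from 48.9 to 111 in Sham and from 23.7 to 49.3 in the infarcted rats.

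The interferon regulatory factors are transcription factors at both ends of the pathway. Irf3, which resting cells already contain and which nucleic acid sensors activate to start interferon production, stood at 11.5, 11.3, 9.76 and 11.4 CPM in Sham and at 16.1, 15.1, 14.7 and 13.9 CPM in MI, with no overlap. Its log2 fold change was 0.44 ± 0.13 (adjusted p = 0.0350). In MI + UA it stood at 14.9, 12.3, 11.5 and 16.4 CPM, spread from the Sham range to the MI range, and was not called (0.34 ± 0.13, adjusted p = 0.114). Irf5, which drives inflammatory cytokine genes in macrophages, stood at 3.51, 5.2, 4.55 and 3.58 CPM in Sham, at 6.65, 5.17, 7.58 and 9.70 CPM in MI and at 8.23, 6.55, 10.8 and 6.81 CPM in MI + UA. MI rat 57 alone reached into the Sham range. Irf5 rose by 0.82 ± 0.22 in MI (adjusted p = 0.0175) and by 0.94 ± 0.22 in MI + UA (adjusted p = 0.00801).

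Irf8, a factor needed for monocyte and macrophage development, stood at 8.78, 6.35, 6.06 and 6.80 CPM in Sham, at 10.0, 9.10, 8.82 and 9.21 CPM in MI and at 10.2, 10.4, 10.7 and 9.57 CPM in MI + UA. The infarcted groups did not overlap Sham, and within each of them the rats were close together. The call was made for MI + UA against Sham (0.53 ± 0.14, adjusted p = 0.0209) and not for MI (0.40 ± 0.14, adjusted p = 0.0800), and the groups MI + UA and MI differed by 0.13 ± 0.13. Without Sham rat 12, the highest of its group, Irf8 was called in MI too. Irf4, a factor of lymphocytes and of some macrophages, was separated between Sham (1.18 to 2.01 CPM) and MI (2.12 to 3.34) but was not called (0.71 ± 0.29, adjusted p = 0.139). Irf7, the factor that amplifies type I interferon production, ranged from 19.0 to 35.4 CPM in Sham, from 12.1 to 30.9 in MI and from 16.9 to 23.7 in MI + UA. Irf1, the classical early target of interferon gamma, ranged from 5.90 to 7.22, 4.73 to 7.09 and 4.50 to 5.89 CPM in that order. Stat2, a subunit of the complex that binds the response element, had group means of 16.1 ± 3.27 (SD), 17.3 ± 2.76 and 16.6 ± 1.31 CPM, and Irf9, its DNA-binding partner, had 21 reads over the 12 libraries, too few to compare.

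Macrophage markers were higher in the same rats. Of 11 macrophage markers, 8 were called higher in MI and 9 in MI + UA, and none was at 0; their summed level was 133 to 167 CPM in Sham, 267 to 430 in MI and 225 to 464 in MI + UA. Within MI, rat 89 had the highest macrophage sum and the highest Irf5, Ifitm1 and Ifitm2 levels, whereas Irf3 and Irf8 were highest in rat 36, which had the lowest macrophage sum, and Ifitm3 was highest in rat 61. Within MI + UA, rat 64 had the highest macrophage sum and the highest Irf5, Irf8, Ifitm1 and Ifitm2 levels. There Irf3 was highest in rat 66, which had the lowest macrophage sum, and Ifitm3 was highest in rat 58. Fibroblast markers rose as well, with 6 of 8 called higher in each comparison and sums of 1127 to 1439, 2188 to 3574 and 2205 to 3685 CPM. Of the cardiomyocyte markers, 8 of 9 were called lower in both. T cell markers summed to 2.74 to 7.63, 4.23 to 8.51 and 3.38 to 8.73 CPM, and NK cell, B cell and neutrophil markers gave 0 calls. The part of these cell types in the rise of Ifitm1, Ifitm2, Ifitm3, Irf3, Irf5 and Irf8 was not tested.

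**Figure D2:**
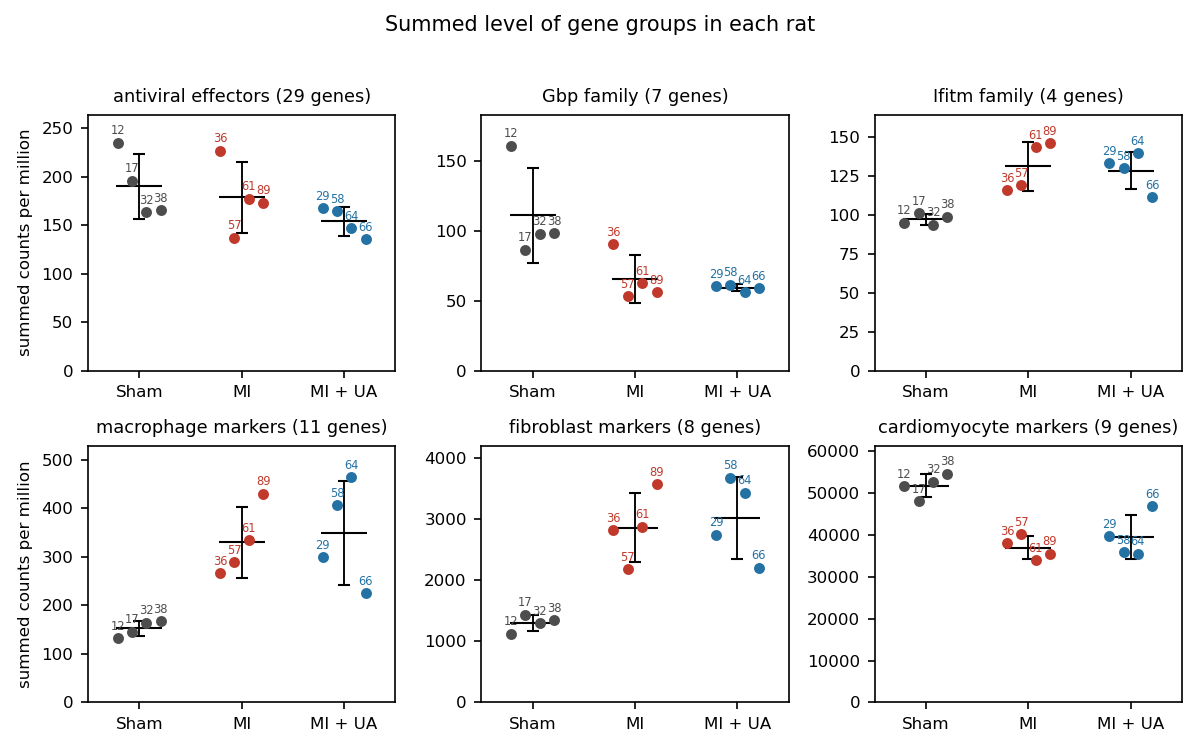
Summed CPM (vertical axes, from 0) of 3 groups of interferon response genes and of the macrophage, fibroblast and cardiomyocyte markers, with 1 point per rat marked by its number and black bars for the mean and SD of 4 rats. The Ifitm, macrophage and fibroblast sums are higher in every infarcted rat than in every Sham rat, the cardiomyocyte sum is lower, and the effector sums of the 3 groups overlap.

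Gbp1 went the other way. Guanylate-binding proteins are large GTPases, strongly induced by interferon gamma, that attack the vacuoles of intracellular microbes. The Gbp1 gene ENSRNOG00000068984 stood at 111, 48.9, 66.3 and 70.9 CPM in Sham, at 49.3, 32.3, 28.0 and 25.3 CPM in MI and at 28.9, 25.7, 23.7 and 36.9 CPM in MI + UA. MI rat 36 just reached the lowest Sham rat, and the other infarcted rats lay below all Sham rats. The log2 fold change was -1.13 ± 0.21 in MI (adjusted p = 0.00115) and -1.35 ± 0.21 in MI + UA (adjusted p = 0.000339), the largest change of any called member. The other 5 tested Gbp genes were not called in either comparison. Gbp2 ranged from 13.0 to 20.7 CPM in Sham, from 11.0 to 19.3 in MI and from 11.4 to 18.5 in MI + UA, and Gbp5 had group means of 12.8 ± 3.66 (SD), 10.1 ± 2.91 and 8.90 ± 1.44 CPM. Since Gbp genes are similar in sequence, the summed family level is given too, though it does not recover reads dropped in counting. It was 86.9 to 161 CPM in Sham, 53.5 to 90.7 in MI and 56.2 to 61.8 in MI + UA, so that MI + UA lay wholly below Sham. Gbp1 itself made up a mean of 74.3, 33.7 and 28.8 CPM of mean sums of 111, 65.8 and 59.5 CPM. The sum is therefore not separate from the Gbp1 result and does not show a fall of the other Gbp genes. Endothelial cells are a known site of Gbp1. The 6 endothelial markers summed to 700.5 to 796 CPM in Sham, 639 to 755 in MI and 577 to 709 in MI + UA, with 1 of them called lower in each comparison, and their part in the fall of Gbp1 was not tested.

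The antiviral effectors were not called between MI and Sham, and their median log2 fold change was -0.03, with 12 of the 26 above 0 and 14 below. Mx1, a GTPase that traps viral nucleocapsids, stood at 8.91, 9.53, 6.73 and 4.65 CPM in Sham and at 14.4, 3.61, 7.06 and 10.3 CPM in MI. The MI group thus held both the highest and the lowest of these rats, and the difference was 0.31 ± 0.31. Rsad2 (viperin), which makes a chain-terminating nucleotide, stood at 26.7, 22.2, 14.3 and 14.4 CPM in Sham and at 23.2, 8.94, 8.41 and 10.7 CPM in MI. Rats 57, 61 and 89 lay below all Sham rats and rat 36 near the top of them. With all rats the difference was -0.56 ± 0.28 (adjusted p = 0.218), and without MI rat 36 it was -1.05 (adjusted p = 0.00504). Dhx58 (LGP2), a regulator of the RNA sensors, had means of 2.29 ± 0.417 CPM in Sham and 1.58 ± 0.555 CPM in MI, and the difference of -0.49 ± 0.33 was not called (adjusted p = 0.389). Ifit2 and Ifit3, of a family with members that bind foreign RNA, had means of 24.2 ± 3.96 and 5.83 ± 0.990 CPM in Sham and of 24.4 ± 5.63 and 5.58 ± 0.950 CPM in MI. Usp18, the protease that removes ISG15 from proteins and damps receptor signalling, had means of 4.52 ± 1.35 and 3.80 ± 1.61 CPM, and Ifi27 of 8.88 ± 2.36 and 7.64 ± 2.06 CPM. Mx2 (7.26 ± 2.25 and 6.35 ± 2.41 CPM) and Oas1a, which makes the messenger that activates RNase L (2.57 ± 0.987 and 2.83 ± 1.31 CPM), differed by less than the SD of either group.

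Isg15, the ubiquitin-like modifier and one of the most inducible interferon targets, had 0 reads in all 12 libraries. A count of 0 allows up to 3 reads, or 0.169 to 0.505 CPM depending on the library, which covers counting error only. Whether the 0 reflects the expression of Isg15 was not tested.

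In MI and Sham, many effectors had the same highest or the same lowest rat. In MI, rat 36 was the highest of 4 for 14 of the 26 effectors and rat 57 the lowest for 14, and the same was so for all 3 RNA sensors, at 46.4 and 21.5 CPM for Ddx58 (RIG-I), 21.9 and 13.6 CPM for Ifih1 (MDA5) and 2.34 and 1.1 CPM for Dhx58. In Sham, rat 12 was the highest for 15 of 26. In MI + UA, rat 58 was the highest for 10 and rat 64 the lowest for 10. The summed effector level was 235, 196, 163 and 165 CPM in Sham, 227, 137, 177 and 173 CPM in MI and 168, 165, 147 and 136 CPM in MI + UA. The groups overlapped, and the range within MI spanned more than the distance between the means of Sham (190 ± 33.6, SD) and MI (179 ± 36.7). In MI the highest sum was in the deepest library, rat 36 with 12743184 reads on genes, and the lowest in the shallowest, rat 57 with 6829591, while rat 89 (11506241 reads) lay just below rat 61 (8456265 reads). In Sham, rat 38 had 8841954 reads, second to rat 12 with 8958828, and was the lowest for 12 of 26 effectors. In MI + UA, rat 66 had the most reads, 19031695, and the lowest sum. The part of depth in the order was not tested.

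**Figure D3:**
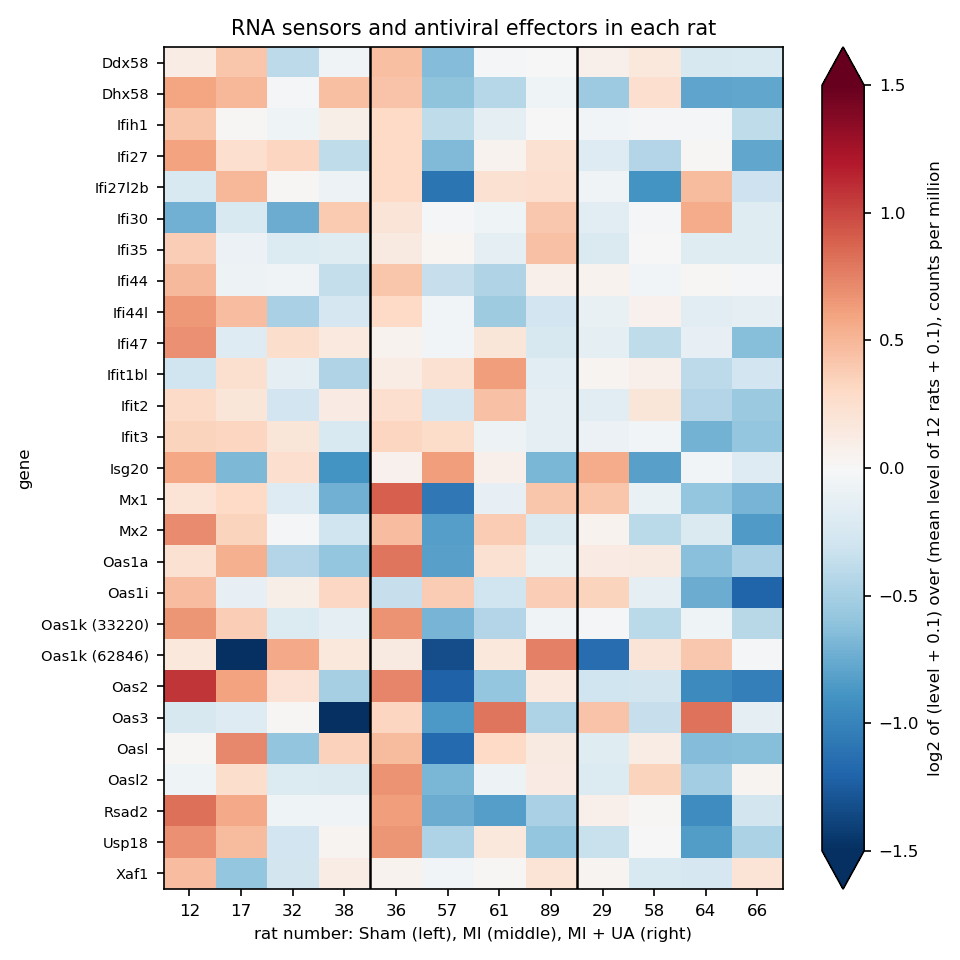
Each cell is the level of 1 gene (rows, the 27 RNA sensors and effectors with at least 100 reads) in 1 rat (columns, by group), as the log2 ratio to its mean over the 12 rats after adding 0.1 CPM; red is above the mean, blue below, and colours stop at 1.5 in either direction. MI rat 36 and Sham rat 12 are red in most rows, and MI rat 57 is blue in most.

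The second comparison set treated infarcts against Sham, and it shares the 4 Sham rats with the first. In MI + UA, 4 members were called higher (7.27% of those tested, against 5.16% of all genes), namely Ifitm1, Ifitm2, Irf5 and Irf8, and 2 were called lower (3.64%, against 4.27%), namely Gbp1 and Ifi47. The groups were fully separated for 4 members that were higher (7.83% of all genes) and 2 that were lower (6.46%), Gbp1 and Irf1. Ifi47, an interferon gamma-induced GTPase, stood at 36.3, 19.6, 26.9 and 24.9 CPM in Sham, at 23.3, 21.8, 25.4 and 19.0 CPM in MI and at 20.2, 17.2, 20.6 and 14.3 CPM in MI + UA. All 4 treated rats lay below 3 of the 4 Sham rats. The log2 fold change was -0.59 ± 0.16 (adjusted p = 0.0202), and the call was lost without rat 66, when it was -0.48, and without Sham rat 12, when it was -0.40. Irf8 lost its call without MI + UA rat 64 or Sham rats 17, 32 or 38, and Ifitm2 without MI + UA rats 29 or 64 or Sham rats 12, 32 or 38. Oas2, with group means of 5.2 ± 2.28, 3.63 ± 2.07 and 2.45 ± 0.699 CPM, came next among the effectors (-1.09 ± 0.36, adjusted p = 0.0645), and was called lower with DESeq2, with a minimum of 1 count and with the 2 groups alone, and also without MI rat 36, MI rat 57 or Sham rat 38. At an unadjusted p under 0.05, 20 of the 55 members passed, 7 higher and 13 lower (36.36%, against 21.8% of all genes), and 8 of the 13 were effectors. Of the 26 effectors, 21 had a fold change below 0, with a median of -0.24, against 47.7% of all tested genes below 0 and a median of 0.02. Single rats of both groups weigh on these values. Without Sham rat 12, the highest Sham rat for 15 of the 26 effectors, 12 members passed at the unadjusted threshold in place of 20. The median over all members then went from -0.10 to -0.03. Without rat 66, whose label is in doubt, 12 passed as well, with a median of -0.08. With rat 66 counted in MI, 11 passed, and without MI + UA rat 64 or Sham rat 17, 13 passed. These genes were read in the same rats, so the counts are not counts of independent genes.

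The third comparison, MI + UA against MI, asks whether urolithin A altered these genes in the infarcted heart. No member was called, as 0% of all tested genes were. At an unadjusted p under 0.05, 1 of 55 members passed (1.82%, against 3.79% of all genes), and no member was fully separated between the groups (2.34% of all genes). That gene was Ifit3, at 6.51, 6.27, 4.88 and 4.64 CPM in MI and at 4.86, 5.01, 3.11 and 3.43 CPM in MI + UA. Treated rats 29 and 58 lay among the MI rats and rats 64 and 66 below them. The difference was -0.43 ± 0.20 with an adjusted p of 1.00, and the unadjusted p no longer passed without MI rats 36 or 57, MI + UA rats 64 or 66, or Sham rat 32, nor with DESeq2, nor with rat 66 counted as MI, where the difference was -0.20. The number of members past the unadjusted threshold also turned on single rats and settings. It was 7 without MI rat 57 or MI rat 89, 6 without MI + UA rat 29 and 5 of 58 with a minimum of 1 count. Without rat 66, and with DESeq2, it was 0. Ifitm1 differed by -0.01 ± 0.13, Ifitm2 by 0.01 ± 0.10, Irf5 by 0.12 ± 0.20 and Gbp1 by -0.22 ± 0.21.

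No effector was called in this comparison and 1 of 26 passed at an unadjusted p under 0.05, yet most signs were negative. Of 26, 23 had a log2 fold change below 0 for MI + UA against MI, among them Usp18 (-0.46 ± 0.28), Mx1 (-0.41 ± 0.30), Mx2 (-0.41 ± 0.26) and Ifit2 (-0.34 ± 0.17), and the median was -0.31. Over all members 44 of 55 were below 0 with a median of -0.19, and over all tested genes 49% were, with a median of 0.00. MI rat 36 weighs on these values: without it the median over the members was -0.05, and with rat 66 counted in MI it was -0.06. No test was run on the group of genes, and this comparison shares the MI rats with the first.

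**Figure D4:**
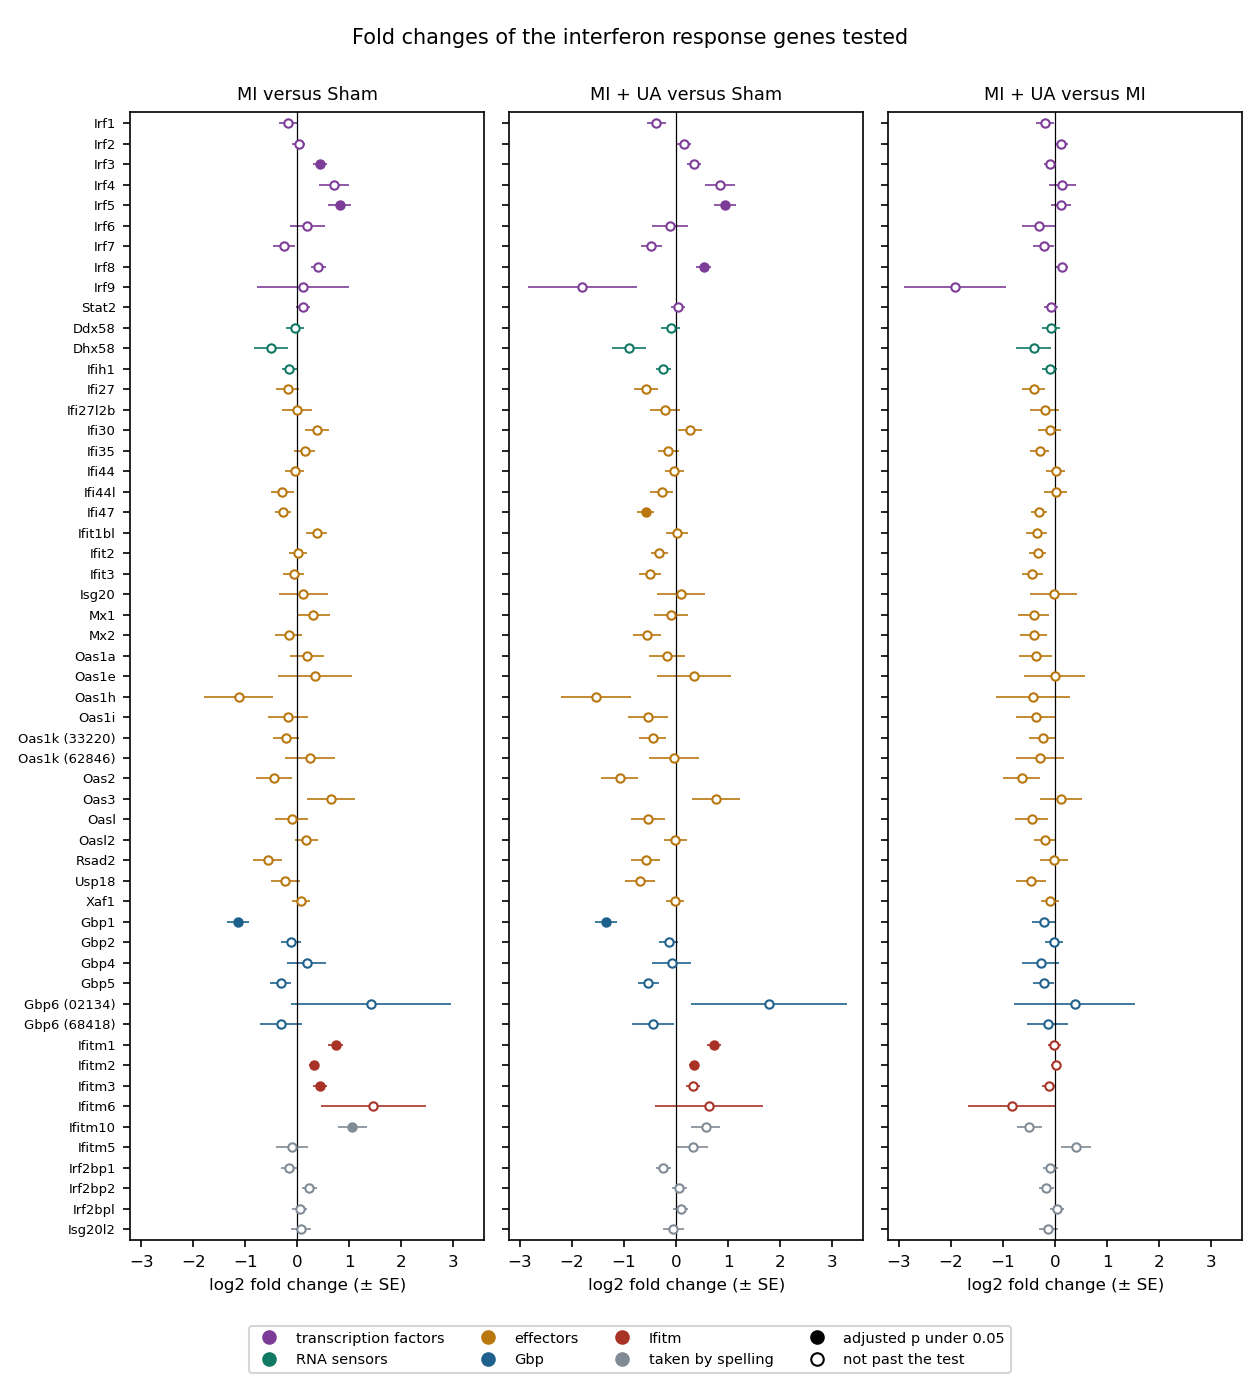
Log2 fold change with SE (horizontal axes, the same scale in each panel) of the 55 tested members, ordered by family, for MI against Sham, MI + UA against Sham and MI + UA against MI; filled points have an adjusted p under 0.05. The Ifitm genes lie to the right and Gbp1 to the left in the panels against Sham, and no point is filled in the panel of MI + UA against MI.

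The other genes of the pathway were taken from a list of ligands, receptors and kinases, nucleic acid sensors, negative regulators, further effectors and interferon gamma targets, of which 93 were tested. In MI, 8 were called higher (8.60%, against 5.82% of all tested genes) and 0 lower (against 5.53%), with a median of -0.04, and 19 passed at an unadjusted p under 0.05 (20.43%, against 23.9%). In MI + UA, 2 were called higher (2.15%, against 5.16%) and 2 lower (2.15%, against 4.27%), and 22 passed unadjusted (23.66%, against 21.8%). Between MI + UA and MI 0 were called, with 5 at an unadjusted p under 0.05 (5.38%, against 3.79%). Without MI rat 61 the 8 calls became 5, and the 4 calls in MI + UA became 1 without its rat 64 and 7 without MI rat 36. With all rats kept, more than 4 were called in MI + UA with DESeq2, with other count filters and with the 2 groups alone. Among the ligands, Ifnb1, Ifnl1 and Ifnl3 had 0 reads, Ifng had 9 and Ifna4 had 11 over the 12 libraries. Among 9 receptors and kinases, 3 were called higher in MI. Ifngr1, the ligand-binding chain of the interferon gamma receptor, stood at 34.9 to 39.5 CPM in Sham, at 43.2, 62.4, 56.5 and 51.8 CPM in MI and at 46.8, 55.5, 48.5 and 40.3 CPM in MI + UA. No infarcted rat overlapped Sham, and the MI change was 0.50 ± 0.11 (adjusted p = 0.00508). Jak2, the kinase bound to the interferon gamma receptor among others, rose by 0.56 ± 0.13 in MI (edgeR adjusted p = 0.00822), with means of 14.2 ± 2.71 (SD) CPM in Sham, 21.0 ± 3.27 in MI and 17.3 ± 1.00 in MI + UA. The treated rats lay wholly below the MI rats, with a difference of -0.26 ± 0.13, among those with an unadjusted p under 0.05 and far from passing the adjustment. Ifnlr1, the receptor chain for type III interferons, rose by 0.74 ± 0.18 in MI (adjusted p = 0.00880). Jak1, the kinase shared by the interferon receptors, stood at 136 to 148 CPM in Sham, 112 to 131 in MI and 124 to 137 in MI + UA. Every MI rat lay below every Sham rat, and the difference of -0.19 ± 0.08 was not called (adjusted p = 0.139). The type I receptor chains Ifnar1 (means 54.2 ± 4.81 and 58.1 ± 5.26 CPM) and Ifnar2 (27.4 ± 3.25 and 24.5 ± 0.492 CPM) were not called.

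The remaining calls in MI were Traf3, an adaptor between sensors and the kinases that activate Irf3 (0.37 ± 0.12), and Cnp, Slfn13, Shisa5 and Apobec1 of the list of further effectors, at 0.79 ± 0.19, 0.77 ± 0.18, 0.34 ± 0.11 and 0.87 ± 0.23. Several of them are also known outside the interferon response: Cnp is a myelin enzyme and Apobec1 edits apolipoprotein B RNA in the gut. In MI + UA, Cnp and Apobec1 were called higher as well, and Trim25, the ligase that ubiquitinates RIG-I, and Uba7, the enzyme that activates ISG15, were called lower, at -0.44 ± 0.12 (adjusted p = 0.0212) and -0.79 ± 0.23 (adjusted p = 0.0365). None of the 17 interferon gamma targets was called in either comparison, where 5.82% and 5.53% of all tested genes were called higher and lower in MI and 5.16% and 4.27% in MI + UA. Of the 17, 12 had a fold change below 0 in MI and 14 in MI + UA (70.6% and 82.4%, against 47% and 47.7% of all tested genes), and the median log2 fold changes were -0.28 and -0.31. At an unadjusted p under 0.05, 3 of the 17 passed in MI, 1 higher and 2 lower (17.65%, against 23.9% of all tested genes), and 5 in MI + UA, 1 higher and 4 lower (29.41%, against 21.8%).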

How the data were processed

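RNA of 12 rat hearts, 4 per group, was sequenced from fixed sections after ribosomal depletion. The authors aligned the reads with STAR 2.6.1c to mRatBN7.2 and deposited whole-number counts per Ensembl gene from HTSeq; MultiQC 1.8 is also named in the submitters' processing notes. The strand setting of the counting is not given in the sources used here. Of the reads in the count table, 51.6% to 57.1% lay in 5 summary lines outside genes and were left out.

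Genes with at least 10 reads in total were fitted over all 3 groups with edgeR 4.0.16 (R 4.3.3; TMM scaling, quasi-likelihood test), and p-values were adjusted over all tested genes by Benjamini-Hochberg. The scripts were tested on simulated data. CPM values use TMM library sizes. Alternatives were DESeq2 1.42.0, its size factors in edgeR, other count filters, the 2 groups alone, TMM without 13 mitochondrial genes, each rat left out, and rat 66 counted in MI. A setting in which a group keeps 3 rats pools the spread over all groups.

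The members and gene lists were chosen with earlier results of these data known. Named are members past the threshold in MI or MI + UA against Sham, those at an unadjusted p under 0.05 in MI + UA against MI, a set of well-known interferon targets, and, of the other pathway genes, those called in MI, receptors and kinases; the ligands, Trim25, Uba7, Oas2, Gbp5, Irf4, Ifitm6 and Ddx58 were added after their values were seen. Samples are separate rats, so p-values measure the spread between animals. The reference tables are of the assembly GRCr8, and only promoter sequences were taken from them. A further library of the MI + UA group is not analysed here.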

Additional observations from a re-analysis of the deposited data

Results flagged for a closer look

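Among 90 groups of 4 rats examined (the named members and the summed families), 4 held a rat whose gap to its nearest neighbour exceeded Dixon's critical limit for 4 values as a share of the group's range; chance flags about 1 in 20 groups. Ifih1 was lowest in MI + UA rat 66, at 13.6 CPM against 17.3 to 17.6 in the other 3 rats. Rsad2 was highest in MI rat 36, at 23.2 CPM against 8.41 to 10.7. Irf3 was lowest in Sham rat 32, at 9.76 CPM against 11.3 to 11.5. The summed Gbp level was highest in Sham rat 12, at 161 CPM against 86.9 to 98.8.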

How the results depend on the processing

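No paired analysis was possible because each rat belongs to 1 group and the rat numbers are not shared between groups. Under the alternatives that kept all rats, 6 to 7 members were called in MI and 5 to 7 in MI + UA against Sham. Their medians moved by less than 0.159, the mean SD between rats of the members' mean log2 level. That limit is wider than the medians of 0.05 and -0.10 against Sham, so staying within it says little. With rat 66 counted in MI, the median of MI against Sham went from 0.05 to -0.01. That of MI + UA against MI went from -0.19 to -0.06. With 1 rat left out, the members called ranged from 2 to 8 in MI against Sham and from 4 to 7 in MI + UA against Sham, and were 0 in MI + UA against MI; the members' medians ranged from -0.08 to 0.10, from -0.21 to -0.03 and from -0.22 to -0.05. The other pathway genes called ranged from 5 to 10 in MI and from 1 to 7 in MI + UA. With all rats, the latter count of 4 became 7 with DESeq2, 7 with filterByExpr, 10 with a minimum of 1 count and 8 with the 2 groups alone. The following changed sign in MI against Sham without being called in either setting. Ifit2 was -0.00079 with the 2 groups alone and -0.11 with rat 66 in MI, and -0.12 to 0.10 over the fits without 1 rat. Irf9 was -0.29 with rat 66 in MI and -0.36 to 0.52 without 1 rat. Leaving out 1 rat gave -0.18 to 0.0196 for Ifit3, -0.029 to 0.53 for Mx1, -0.34 to 0.0564 for Mx2, -0.15 to 0.42 for Oas1a and -0.0087 to 0.27 for Stat2. The cause was not tested. Of the remaining 554 values of single genes, 509 kept their direction and side of the threshold, 43 no longer passed it and 2 newly passed it; 7 of the 43 are fits of Ifit3 in MI + UA against MI, where the threshold was an unadjusted p under 0.05 and no call had been made. DESeq2's own filter gave no adjusted p for Irf9. Few reads limit Irf9, Ifitm6 and the Gbp6 gene ENSRNOG00000002134, with 21, 24 and 13 reads.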
